A study of Homo sapiens with 16 samples.

Results

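The genes described here are the protein-coding HOX genes of the human HOXA, HOXB, HOXC and HOXD clusters. Every protein-coding row of the deposited count table whose name is HOX, a cluster letter and a number was taken, which gave 39 of 58735 genes. HOXA holds 11 of them, HOXB 10, HOXC 9 and HOXD 9. The rule used no measured value, though earlier results of these data were known when it was chosen. The RNA came from IMR32, a cell line established from a human neuroblastoma, a tumour of the sympathetic nervous lineage, and its genotype is labelled WT. One group received the vehicle DMSO, one 1.25 µM indisulam, one 4 µM alectinib and one both drugs at those doses, all for 24 h and with 4 libraries in each group. Indisulam is an aryl sulfonamide that directs the splicing factor RBM39 to the ligase adaptor DCAF15 for degradation, and alectinib inhibits the receptor tyrosine kinase ALK. A single line stands for the tumour, and the labels number the libraries without naming separate cultures, so a p-value here reflects only how far the libraries scattered, some of which may be technical.

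Levels are given in CPM, the counts scaled to a common library size. Library totals lay between 55.1 M and 63.7 M counts, apart from alectinib replicate 1 with 90.2 M. A gene with 0 counts in a library could still have had up to 3 counts, which is 0.0332 to 0.0545 CPM depending on the library, and such limits cover counting error only. All 13 adrenergic neuroblastoma markers examined, such as PHOX2A, HAND2 and TH, had at least 1 CPM in DMSO. Their summed level was 2570 to 2890 CPM in DMSO, 2810 to 3200 under indisulam, 2200 to 2550 under alectinib and 1930 to 2380 with both drugs. Of 10 mesenchymal or fibroblast markers, 6 had at least 1 CPM in DMSO, with sums of 192 to 229 CPM in DMSO, 212 to 249 under indisulam, 156 to 196 under alectinib and 175 to 224 with both drugs. Most of this sum was TWIST1, at 171 CPM in DMSO and 161 CPM in the combination. Within the sum, FOSL1 went from 0.26 CPM in DMSO to 13.6 in the combination, and PDGFRB from 24.5 to 9.13. The 5 blood markers were all under 1 CPM in DMSO, and CD3E and HBB had no count in any library. Their sum went from 0.591 to 0.801 CPM in DMSO to 1.96 to 2.29 under indisulam and 4.83 to 6.18 in the combination, with 0.745 to 1.01 under alectinib, and most of it was CD74, at 0.588 CPM in DMSO and 5.6 CPM in the combination. The 5 epithelial markers summed to at most 0.867 CPM and the 3 endothelial markers to at most 0.46 CPM in any library. These marker sums differed between treatments, and their part in the HOX values was not tested.

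HOX genes encode homeodomain transcription factors that give cells their position along the body axis. They lie in clusters whose order along the chromosome matches their order of expression from head to tail, and genes with the same number in different clusters, called paralogs, are descended from one ancestral gene. In the trunk neural crest, from which the sympathetic lineage arises, and in the spinal cord, central HOX genes are active. HOX proteins bind DNA together with TALE homeodomain cofactors of the PBX, MEIS and PKNOX families, while Polycomb and trithorax-group complexes keep the clusters off or on.

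In IMR32 cells, HOX transcription came from HOXC and HOXD. Per kilobase of exon, HOXD genes made up 76.1% ± 0.797 (SD, n = 4) of the summed HOX level in DMSO and HOXC genes 23.9% ± 0.797. HOXA and HOXB had no count in any DMSO or indisulam library. Of the 39 genes, 20 had at least 1 count in any of the 16 libraries and 19 had none. In HOXA, HOXA5 and HOXA11 had 2 counts each, in 1 library each, and in HOXB, HOXB8 had 5 counts and HOXB9 had 19. The group mean reached 1 CPM in at least 1 group for 7 genes, HOXC4, HOXC6, HOXC8, HOXC9, HOXD3, HOXD8 and HOXD9. Another 4 genes, HOXC5, HOXD4, HOXD10 and HOXD13, had their highest group mean between 0.1 and 1 CPM, and the remaining 28 were below 0.1 CPM in every group.

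**Figure D1:**
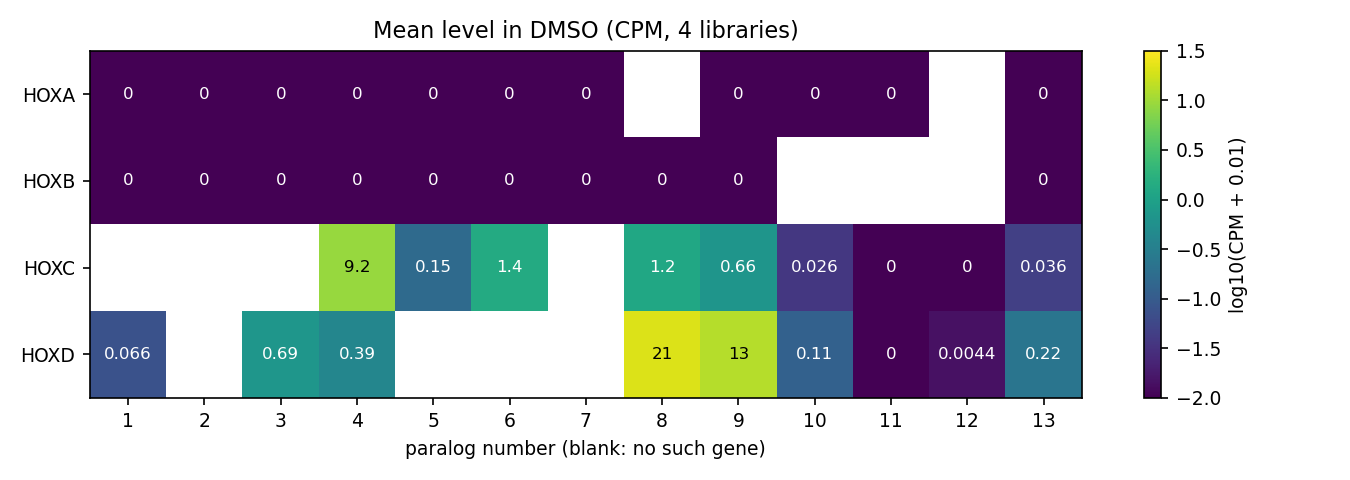
Mean CPM of each HOX gene in the 4 DMSO libraries, with clusters in rows and paralog numbers in columns; colour is log10(CPM + 0.01) and blanks are positions with no gene. The HOXA and HOXB rows are at 0, and HOXD8 (20.9 CPM), HOXD9 (12.9 CPM) and HOXC4 (9.15 CPM) stand out.

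Genes with at least 0.1 CPM in DMSO lay side by side within a cluster, apart from HOXD13. In HOXC (GRCh38 chromosome 12, 53938765 to 54056030, plus strand), every gene from HOXC9 to HOXC4 had at least 0.1 CPM in DMSO. HOXC10, HOXC11, HOXC12 and HOXC13, which lie next to one another at the other end, had at most 0.0358 CPM there. HOXC12 had no count in any library. In HOXD (chromosome 2, 176092891 to 176190907, plus strand) the high genes HOXD9 and HOXD8 adjoin each other, with HOXD4 and HOXD3 on one side at lower levels. On the other side HOXD10, next to HOXD9, had 128 counts over all 16 libraries (0.114 CPM in DMSO), and HOXD11 had no count. HOXD12 had 1 count in all, and the terminal gene HOXD13 was detected again, in all 16 libraries, with 337 counts. At the far end HOXD1 had 54 counts in 11 libraries.

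**Figure D2:**
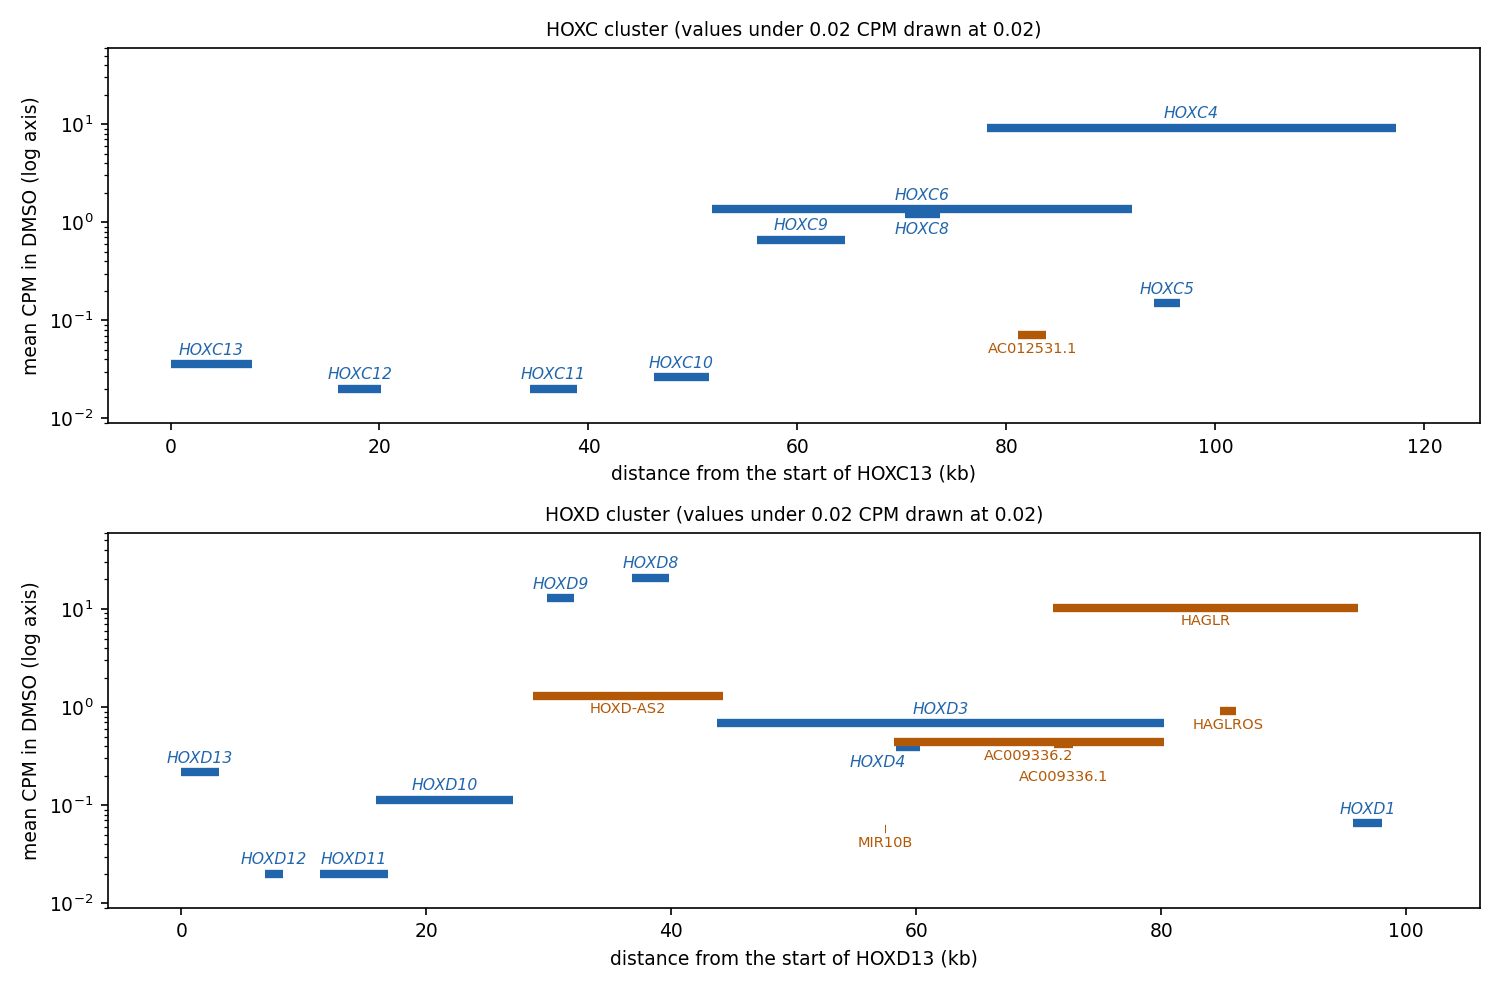
Mean CPM in DMSO (log axis) against distance in kb along the HOXC and HOXD clusters; blue bars span HOX genes and brown bars other genes inside the cluster with a mean of at least 0.05 CPM in any group. HOXD8 (20.9 CPM), HOXD9 (12.9 CPM) and the antisense gene HAGLR (10.3 CPM) stand out in HOXD, and HOXC4 (9.15 CPM) in HOXC.

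Levels of different genes were compared per kilobase of exon. In DMSO the order was HOXD8 with 7.97 ± 0.083 CPM per kb (SD, n = 4), HOXD9 with 6.9 ± 0.405, HOXC4 with 3.36 ± 0.222 and HOXC8 with 0.639 ± 0.0596. HOXC9 (0.394 ± 0.115) and HOXC6 (0.383 ± 0.0947) followed and did not differ beyond their spread. HOXD4 (0.268 ± 0.0326) and HOXD3 (0.194 ± 0.0757) overlapped as well, and below them came HOXD13 (0.0967 ± 0.0331), HOXC5 (0.0831 ± 0.0724) and HOXD10 (0.0425 ± 0.0131). On this scale 64.8% of the 14728 tested protein-coding genes lay below HOXD8, 61.0% below HOXD9 and 44.1% below HOXC4. Below HOXC8 lay 22.7% and below HOXD10 4.0%. Summed by cluster, HOXD had 15.5 ± 0.35 CPM per kb in DMSO and 14.4 ± 1.11 with indisulam, and HOXC had 4.88 ± 0.319 and 5.58 ± 0.796. With alectinib HOXD had 18.2 ± 1.46 and HOXC 4.84 ± 0.171, and with both drugs they had 16.3 ± 0.567 and 4.43 ± 0.442.

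How far the counts belong to one gene depends on exon overlap, and neither strand nor multi-mapping settings of the counting are given in the sources used here. The exons of HOXD8, HOXD9, HOXC8 and HOXD13 overlap no other gene in GENCODE 29. The share free of other genes is 90.3% for HOXC9, 84.3% for HOXC6 and 82.2% for HOXC4. It is 40.1% for HOXC5, 25.9% for HOXD3 and 19.5% for HOXD4, so the counts of these 3 genes are uncertain. Divided by the unshared length alone, HOXD4 would reach 1.37 CPM per kb and HOXD3 0.746 in DMSO. HOXC4 and HOXC5 also share one promoter entry in RefSeq.

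Paralogs could share reads where their homeoboxes are alike, so the part of the homeobox that encodes the recognition helix is shown for 5 of the genes on which the results turn. Each line gives 51 bases of the transcript strand from GENCODE 29 (GRCh38, all plus strand). Capitals mark the codons for tryptophan, phenylalanine, glutamine, asparagine and a pair of arginines, the core of the helix that enters the major groove of DNA.
HOXC4 chr12:54054999-54055049: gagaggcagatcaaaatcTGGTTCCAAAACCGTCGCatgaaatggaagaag
HOXC6 chr12:54029798-54029848: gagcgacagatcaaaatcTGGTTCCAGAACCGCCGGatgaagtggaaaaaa
HOXD8 chr2:176131451-176131501: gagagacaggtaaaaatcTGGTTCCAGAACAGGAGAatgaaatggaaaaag
HOXC9 chr12:54002588-54002638: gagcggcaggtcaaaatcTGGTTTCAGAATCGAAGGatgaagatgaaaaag
HOXD9 chr2:176124092-176124142: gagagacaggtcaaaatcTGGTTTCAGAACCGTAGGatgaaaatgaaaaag

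Over the 60 residues of the homeodomain, the paralogs HOXC9 and HOXD9 have the same residue at 58 positions, and their homeoboxes match at 83.3% of bases. HOXD8 and HOXD9, neighbours in the cluster but of different paralog groups, match at 42 of these residues. Among HOX genes whose exons do not overlap on the genome, the longest stretch of identical bases that any of these 5 genes shares is 40 bases, between HOXD9 and HOXB9, against reads of 150 bases. Exon overlap on the same strand gives larger shared totals. HOXC4 shares 484 exonic bases with HOXC6 and with a noncoding gene also named HOXC5, which had no count in any library. HOXC6 shares 557 with HOXC4, that noncoding gene and HOXC9. HOXC9 shares 73 with HOXC6, and on the other strand 163 with the noncoding gene HOXC-AS2, which had 7 counts over all libraries. A read need only touch such bases to overlap both genes, and how these reads were counted was not tested. HOXD3 shares up to 62 bases with HOXB3, which had no count in any library.

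The promoters of HOXD8 and HOXC4, the genes with the highest level per kilobase in HOXD and HOXC, are shown from RefSeq (GRCh38.p14, plus strand, 300 bases across the start), with CG dinucleotides in capitals because CpG-rich promoters are the usual substrate of Polycomb and KMT2 complexes. 
HOXD8 chr2:176129455-176129754: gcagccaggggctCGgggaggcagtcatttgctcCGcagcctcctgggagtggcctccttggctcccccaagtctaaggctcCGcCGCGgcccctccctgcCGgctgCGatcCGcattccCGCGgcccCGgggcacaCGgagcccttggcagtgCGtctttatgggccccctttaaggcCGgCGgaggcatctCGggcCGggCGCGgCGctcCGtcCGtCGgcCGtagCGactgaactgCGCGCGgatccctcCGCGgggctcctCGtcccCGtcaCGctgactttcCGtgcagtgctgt
HOXC4 chr12:54016638-54016937: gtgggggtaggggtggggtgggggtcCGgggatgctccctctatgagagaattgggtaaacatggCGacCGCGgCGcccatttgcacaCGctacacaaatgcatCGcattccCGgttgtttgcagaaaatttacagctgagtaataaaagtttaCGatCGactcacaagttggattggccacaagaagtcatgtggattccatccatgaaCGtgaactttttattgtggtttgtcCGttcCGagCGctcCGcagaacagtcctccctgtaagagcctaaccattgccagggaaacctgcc

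The HOXD8 window holds 34 CG dinucleotides at 71.7% G and C. The HOXC4 window, which RefSeq also lists for HOXC5, holds 15 at 51.7%, against medians of 14 and 58.7% over 35116 promoter windows of that length. Both strands were searched for 5 short motifs. The TATA box TATAAA occurs in 11.5% of those windows and the CCAAT box, spelled as named, in 34.6%. The E-box CACGTG is in 7.3%, the GC box GGGCGG in 45.0% and the HOX-PBX composite TGATNNAT in 7.4%. No match was found in the HOXD8 window, and the HOXC4 window holds the CCAAT box on the minus strand at -200 and -77 from the start. Of the HOX genes, 20 have an entry, with 27 windows in all because some have several starts. The 7 windows of the 7 genes at 0.1 CPM or more in a group had 47.3% to 74.0% G and C and 4 to 34 CG dinucleotides. The 20 windows of the 13 genes near 0 had 43.7% to 76.3% and 0 to 44, so the ranges overlapped. Both lowest values near 0 came from HOXA3, which has several starts, and the window shared by HOXC4 and HOXC5 is counted for each gene. HOXD9, HOXC6, HOXC8 and HOXC9 have no entry, and HOXB has 1 gene with an entry.

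Of the 39 genes, 11 had enough counts to be tested with edgeR's quasi-likelihood test, and a call means an adjusted p under 0.05 over all 22433 genes tested. With indisulam against DMSO, 1 of the 11 was called higher and 1 lower, where 23% of all tested genes were higher and 24.8% lower (47.8% in all). Alectinib against DMSO gave 2 higher and 0 lower, against 9.99% and 12.3% of all genes (22.3% in all). The combination against DMSO gave 3 higher and 3 lower, against 29.7% and 30.6% (60.3% in all). Taking both directions, 2, 2 and 6 of the 11 HOX genes were called, in no comparison a larger share than among all genes. In the combination the SEs were 0.09 to 0.11 for HOXD8, HOXD9 and HOXC4, all called, and 0.21 to 0.77 for the others. Changes of equal size were thus harder to call in most HOX genes, so these shares do not measure how strongly HOX genes responded. The median log2 fold change of the 11 was 0.17 under indisulam, 0.32 under alectinib and 0.14 with both drugs. The medians of all genes were -0.01, 0.01 and 0.01. These 3 comparisons share the DMSO libraries, so their values stand side by side and are not independent of one another. With upper-quartile scaling 3285 of 5133 genes called with alectinib were higher, against 2242 of 5009 as reported, and the median of all genes moved to 0.089 there.

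**Figure D3:**
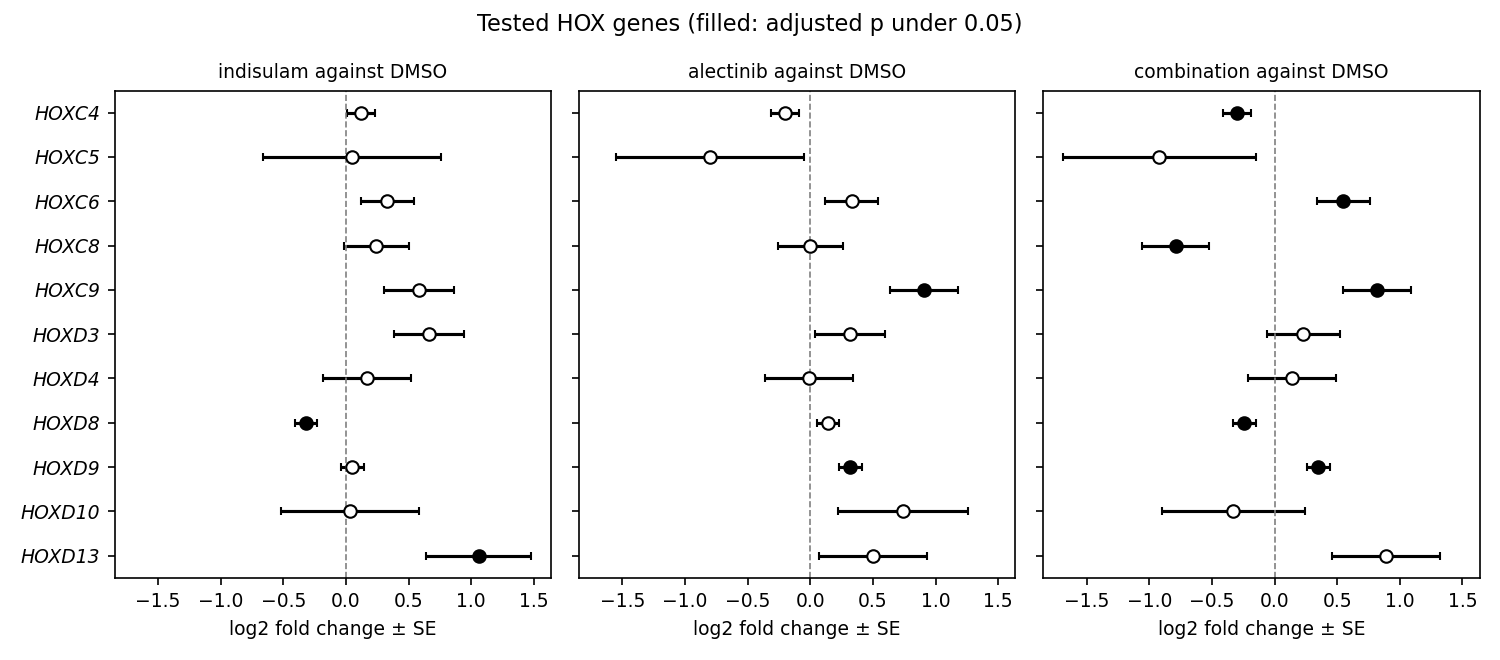
Log2 fold change ± SE against DMSO of the 11 tested HOX genes under indisulam, alectinib and the combination; filled points have an adjusted p under 0.05. HOXD8 is to the left of 0 under indisulam (-0.32), HOXD9 and HOXC9 to the right under alectinib (0.32 and 0.91), and the combination has filled points on both sides.

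HOXD8 (ENSG00000175879, chromosome 2, 176129694 to 176132695), a central HOX gene, fell with indisulam. It had 20.8, 20.8, 21.3 and 20.9 CPM in DMSO replicates 1 to 4 and 16.6, 16.3, 18.3 and 15.9 CPM with indisulam. In alectinib it had 22.2, 27.4, 23.2 and 19.7 CPM, and in the combination 19.2, 17.5, 18.5 and 15.9 CPM. All 8 libraries with indisulam lay below all 4 DMSO libraries, while the alectinib libraries spread to both sides of DMSO. The log2 fold change under indisulam was -0.32 ± 0.09 (SE, adjusted p = 0.00492), a level of 0.801 times DMSO. In the combination it was -0.24 ± 0.09 (adjusted p = 0.0268) against DMSO and -0.38 ± 0.09 (adjusted p = 0.000928) against alectinib. Against indisulam it was 0.09 ± 0.09 (adjusted p = 0.492), and alectinib alone was at 0.14 ± 0.09 (adjusted p = 0.275). The call in the combination against DMSO was lost with upper-quartile scaling (-0.11, adjusted p = 0.299, range 0.0171 to 0.299 over the alternatives) and without DMSO replicate 3 or combination replicate 4. Upper-quartile scaling also moved the median of all genes in that comparison to 0.13.

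HOXD9 (ENSG00000128709, chromosome 2, 176122720 to 176124937), the neighbour of HOXD8 and a paralog of HOXC9, rose with alectinib. Its levels were 12.9, 12.8, 12.1 and 13.9 CPM in DMSO and 13.7, 14, 14.5 and 11.2 CPM under indisulam. They were 15, 16.6, 16.9 and 15.9 CPM under alectinib and 16.4, 16.9, 15.9 and 16.5 CPM in the combination. Every library with alectinib, alone or combined, lay above every library without it. The log2 fold change was 0.32 ± 0.09 (SE, adjusted p = 0.00933) under alectinib, 0.35 ± 0.09 (adjusted p = 0.00133) in the combination and 0.30 ± 0.09 (adjusted p = 0.00786) for the combination against indisulam. Indisulam alone was at 0.05 ± 0.09 (adjusted p = 0.687), and the combination against alectinib at 0.03 ± 0.09 (adjusted p = 0.808). Each of the called HOXD9 changes passed the test in all 13 alternatives fitted for single genes.

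The balance between these neighbours differed between groups. Within a library, the ratio of HOXD9 to HOXD8 per kilobase was 0.867 ± 0.0559 (SD, n = 4) in DMSO, 1.12 ± 0.094 under indisulam, 0.991 ± 0.121 under alectinib and 1.3 ± 0.121 with both drugs. The DMSO libraries ran from 0.799 to 0.936 and the combination libraries from 1.2 to 1.45, so HOXD8 led in every DMSO library and HOXD9 in every combination library. The ratio is a description with no test of its own. In RNA from whole cultures, fewer cells that transcribe a gene and less of its RNA per cell cannot be told apart.

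**Figure D4:**
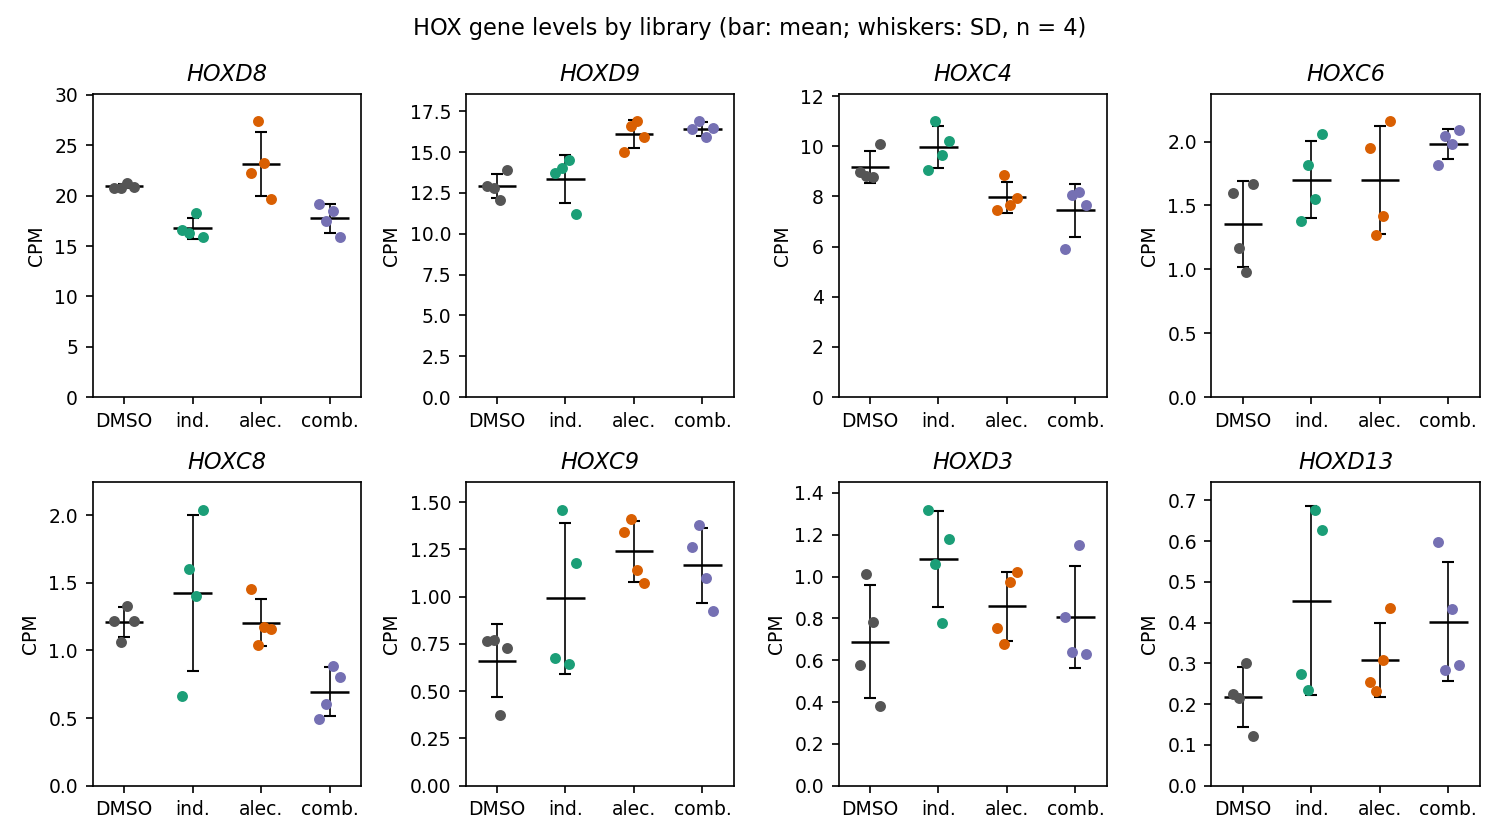
CPM of 8 HOX genes in each library (points), with the mean and SD of the 4 libraries of each group; ind., alec. and comb. are indisulam, alectinib and the combination. HOXD8 is lower in the 8 libraries with indisulam (15.9 to 19.2 CPM) than in the other 8, HOXD9 is higher in the 8 with alectinib than in the other 8, and HOXC8 in the combination (0.491 to 0.882 CPM) lies below DMSO (1.06 to 1.33 CPM).

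HOXC4 (ENSG00000198353, chromosome 12, 54016931 to 54056030) had the highest level per kilobase in HOXC. In mouse B cells its product activates the gene of the antibody-diversifying enzyme AID. It had 8.97, 8.8, 8.79 and 10.1 CPM in DMSO, 9.05, 11.0, 9.66 and 10.2 under indisulam, 7.44, 8.84, 7.65 and 7.93 under alectinib, and 5.91, 8.04, 8.17 and 7.66 in the combination. All combination libraries were below all DMSO and indisulam libraries, and alectinib overlapped DMSO by 1 library. The log2 fold change of the combination was -0.30 ± 0.11 (SE, adjusted p = 0.0212) against DMSO and -0.42 ± 0.11 (adjusted p = 0.00335) against indisulam. Alectinib alone was at -0.20 ± 0.11 (adjusted p = 0.193) and indisulam alone at 0.12 ± 0.11 (adjusted p = 0.371). The first of these calls did not pass with upper-quartile scaling (-0.18, adjusted p = 0.142, range 0.011 to 0.142), without DMSO replicate 4 or without combination replicate 1.

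HOXC8 (ENSG00000037965, chromosome 12, 54009106 to 54012362), which in the mouse helps to set brachial motor neuron pools, was lower in the combination than in any other group. DMSO libraries had 1.22, 1.06, 1.33 and 1.22 CPM, indisulam libraries 0.66, 1.6, 1.4 and 2.04, alectinib libraries 1.45, 1.04, 1.17 and 1.16, and combination libraries 0.491, 0.602, 0.882 and 0.803. The combination did not overlap DMSO or alectinib, and overlapped indisulam through indisulam replicate 1. The log2 fold change was -0.79 ± 0.27 (SE, adjusted p = 0.0143) against DMSO, -1.03 ± 0.27 (adjusted p = 0.00356) against indisulam and -0.80 ± 0.27 (adjusted p = 0.0143) against alectinib. Neither single drug was called, at 0.24 ± 0.26 under indisulam and 0.00 ± 0.26 under alectinib. Without combination replicate 1 the values against DMSO and alectinib were both -0.66 with adjusted p = 0.0504 and 0.0513 (ranges 0.00946 to 0.0504 and 0.00953 to 0.0513).

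The interaction, which is the combination minus both single-drug changes on the log2 scale, called 0 of the 11 HOX genes with edgeR, where 6.85% of all genes were higher and 6.63% lower (13.5% in all). HOXC8 was at -1.04 ± 0.37 (SE, adjusted p = 0.067), and 1 of the 11, HOXC8, had an unadjusted p under 0.05. DESeq2 called 1, HOXC8 (-1.02, adjusted p = 0.0391), as did the edgeR fit without indisulam replicate 1 (-1.28, adjusted p = 0.0103), and the adjusted p ran from 0.0103 to 0.158 over the alternatives. HOXD8 and HOXD9 had interactions of -0.06 ± 0.13 and -0.02 ± 0.12.

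HOXC9 (ENSG00000180806, chromosome 12, 53994895 to 54003337), which in the mouse spinal cord sets thoracic motor neuron identity, rose in the combination, where HOXC8 fell. It had 0.766, 0.773, 0.374 and 0.73 CPM in DMSO, 0.676, 1.46, 0.644 and 1.18 under indisulam, 1.34, 1.41, 1.14 and 1.07 under alectinib, and 1.26, 1.38, 1.1 and 0.925 in the combination. The DMSO libraries lay below all libraries with alectinib, and the indisulam libraries reached into both. It rose with alectinib alone (log2 0.91 ± 0.27 (SE), adjusted p = 0.0178) and with the combination (0.82 ± 0.27, adjusted p = 0.0127), and indisulam was at 0.58 ± 0.28 (adjusted p = 0.09, range 0.0375 to 0.361), passing without indisulam replicate 1 or 3. DMSO replicate 3 was low, and without it the alectinib change was 0.72 (adjusted p = 0.0642, range 0.00744 to 0.0642). The combination change passed in all 13 alternatives. Within a library the ratio of HOXC9 to HOXC8 per kilobase was 0.629 ± 0.219 (SD, n = 4) in DMSO and 2.04 ± 0.813 in the combination.

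HOXC6 (ENSG00000197757, chromosome 12, 53990624 to 54030823), known in the mouse for brachial motor columns, had 1.6, 1.17, 0.978 and 1.67 CPM in DMSO and 1.38, 1.82, 1.55 and 2.06 under indisulam. It had 1.95, 1.27, 1.42 and 2.16 CPM under alectinib and 1.82, 2.04, 1.98 and 2.09 in the combination. The combination libraries lay above all DMSO libraries, with a log2 fold change of 0.55 ± 0.21 (SE, adjusted p = 0.0249), while both single drugs were at 0.33 ± 0.21 and were not called. That call was not made without a filter on low counts (adjusted p = 0.0501, range 0.00745 to 0.0835) nor when DMSO replicate 2, DMSO replicate 3 or combination replicate 4 was left out.

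HOXD3 (ENSG00000128652, chromosome 2, 176136612 to 176173102), needed for the first neck vertebrae in the mouse, was not called in any comparison. Its levels were 0.575, 1.01, 0.783 and 0.383 CPM in DMSO, 1.32, 1.06, 0.776 and 1.18 under indisulam, 0.755, 0.679, 0.976 and 1.02 under alectinib, and 0.807, 0.637, 1.15 and 0.628 in the combination. The groups overlapped. Indisulam against DMSO was at 0.66 ± 0.28 (SE, adjusted p = 0.0579, range 0.0182 to 0.199), and passed in 4 of 13 alternatives, with upper-quartile scaling, with DESeq2, without DMSO replicate 2 (0.90, adjusted p = 0.0182) and without indisulam replicate 3 (0.79, adjusted p = 0.0339).

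HOXD13 (ENSG00000128714, chromosome 2, 176092891 to 176095938), the digit gene mutated in human synpolydactyly, was called higher with indisulam at a very low level. It had 0.226, 0.216, 0.302 and 0.122 CPM in DMSO and 0.274, 0.234, 0.677 and 0.628 under indisulam. Alectinib libraries had 0.255, 0.232, 0.309 and 0.435 CPM and combination libraries 0.597, 0.283, 0.433 and 0.297. Indisulam replicates 3 and 4 were high and replicates 1 and 2 lay within DMSO. The log2 fold change was 1.06 ± 0.42 (SE, adjusted p = 0.0416, range 0.0184 to 0.157) and did not pass in 7 of 13 alternatives. Without indisulam replicate 3 it was 0.81 (adjusted p = 0.157) and without replicate 4 it was 0.87 (adjusted p = 0.133). The combination was at 0.89 ± 0.43 (adjusted p = 0.0757, range 0.0455 to 0.239) and passed with upper-quartile scaling.

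The other 3 tested genes, HOXC5, HOXD4 and HOXD10, were called in no comparison. HOXD4 ranged from 0.223 to 0.666 CPM over the 16 libraries, HOXC5 from 0.0166 to 0.338 and HOXD10 from 0.0175 to 0.215. HOXD10 had its lowest unadjusted p in the combination against alectinib (-1.07 ± 0.54, adjusted p = 0.0949), and those groups did not overlap.

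Set against the single drugs, the combination had few HOX genes called, and the SEs of most of the 11 were wide. Against indisulam, 1 of 11 was higher (HOXD9) and 2 lower (HOXC4 and HOXC8), where 18.9% of all genes were higher and 20.1% lower (39% in all). Against alectinib, 0 were higher and 2 lower (HOXD8 and HOXC8), where 26.5% and 29% of all genes were called (55.5% in all). HOXD9 was thus called higher with alectinib whether the reference was DMSO or indisulam, and HOXD8 lower with indisulam whether it was DMSO or alectinib.

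Noncoding genes inside the clusters were measured too. The 22 noncoding genes of the HOXA cluster, HOTAIRM1 and HOTTIP among them, had no count in any library, and HOTAIR in HOXC had none. Of 15 in HOXB, 2 had a count and none reached 1 CPM, and of 13 in HOXC, 4 had a count and none reached 1 CPM. In HOXD 5 of 7 had counts, and 3 reached 1 CPM in a group.

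HAGLR (ENSG00000224189, chromosome 2, 176164051 to 176188958, minus strand), whose span overlaps HOXD3 and HOXD1 on the other strand, fell with indisulam and with the combination. It had 9.66 to 11.3 CPM in DMSO, 7.04 to 10.2 under indisulam, 9.56 to 10.6 under alectinib and 7.63 to 8.4 with both drugs. The combination lay below DMSO and alectinib, and indisulam overlapped DMSO. The log2 fold changes were -0.30 ± 0.11 (SE, adjusted p = 0.0204) under indisulam, -0.35 ± 0.11 (adjusted p = 0.00675) in the combination and -0.03 ± 0.10 under alectinib. HOXD8, whose span does not meet that of HAGLR, was lower in the same comparisons.

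HOXD-AS2 (ENSG00000237380, 176121611 to 176137098, minus strand), whose span covers HOXD9 and HOXD8 on the other strand, rose with alectinib from 1.31 ± 0.223 CPM (SD, n = 4) to 1.99 ± 0.11 (log2 0.61 ± 0.18 (SE), adjusted p = 0.015). Indisulam was at 0.20 ± 0.18 and the combination at 0.32 ± 0.18, neither called. HAGLROS (ENSG00000226363, 176177717 to 176179008, plus strand), which lies inside HAGLR, rose from 0.916 ± 0.162 CPM to 1.5 ± 0.298 in the combination (0.71 ± 0.25, adjusted p = 0.0155). Without a stated strand setting, reads of HAGLR and HAGLROS and of other antisense pairs may not be separated.

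The nearest protein-coding genes outside the clusters changed in both directions. Beyond HOXD, MTX2, a mitochondrial outer membrane protein gene, fell with indisulam (log2 -1.08 ± 0.08 (SE), adjusted p = 1.73e-10), from 31.1 CPM to 14.7, and was at 15.5 CPM in the combination. HNRNPA3, an RNA-binding protein gene, rose (0.46 ± 0.06 and 0.48 ± 0.06), LNPK, which shapes endoplasmic reticulum junctions, fell with alectinib (-0.31 ± 0.08), and EVX2, itself a homeobox gene, had group means of at most 0.0592 CPM. Beyond HOXC, CALCOCO1 fell with indisulam (-1.04 ± 0.10) and the combination (-1.62 ± 0.10), SMUG1, a uracil DNA glycosylase gene, fell by 0.78 and 0.84 on that scale, and ATP5MC2, a subunit of ATP synthase, fell with alectinib (-0.21 ± 0.07). CBX5, which encodes a heterochromatin protein, was at 0.21, -0.19 and -0.18 under indisulam, alectinib and the combination, all called. MTX2, CALCOCO1 and SMUG1 thus had larger fitted indisulam changes than any HOX gene that reached 1 CPM in a group. Beside the silent HOXA and HOXB clusters, HIBADH (18.7 CPM in DMSO), SNX11 (39.1 CPM) and CALCOCO2 (40.7 CPM) were transcribed, while SKAP2 and EVX1 had no count. In the combination HIBADH was at -0.26, SNX11 at 0.56 and SNX10 at 0.71 ± 0.28, all called. For SNX10 the combination overlapped DMSO, with means of 1.13 and 0.687 CPM. CALCOCO2 was called in no comparison, and SKAP1 and TTLL6 had too few counts to be tested.

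Most TALE cofactors, partners of HOX proteins on DNA, fell. Of 8 tested PBX, MEIS and PKNOX genes examined, 6 fell and 0 rose in the combination, with a median log2 fold change of -0.74 where that of all genes was 0.01 and 30.6% of all genes were lower and 29.7% higher. Indisulam had 5 lower (median -0.33), where 24.8% of all genes were lower, and alectinib 4 lower (median -0.25), where 12.3% were, with 0 higher in both. MEIS1 had 254 to 286 CPM in DMSO, 196 to 219 under indisulam, 213 to 233 under alectinib and 118 to 143 with both drugs. The combination lay below both single-drug groups, and those below DMSO. The log2 fold change of MEIS1 in the combination was -1.03 ± 0.06 (SE, adjusted p = 2.24e-12), with an interaction of -0.34 ± 0.09 (adjusted p = 0.0131).

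MEIS3 had 106 ± 11.0 CPM (SD, n = 4) in DMSO, 44.3 ± 4.11 with indisulam and 30.8 ± 5.44 with both drugs, for which the log2 fold change was -1.79 ± 0.10 (SE). PKNOX2 went from 11.7 ± 0.672 to 2.1 ± 0.474 CPM in the combination (-2.47 ± 0.13, adjusted p = 2e-13), with an interaction of -0.80 ± 0.18 (adjusted p = 0.00456). PBX2 (0.08) and PBX4 (-0.31) were the members not called there, and upper-quartile scaling gave 1 higher. Set beside the HOX genes, whose called changes in the combination ran from -0.79 to 0.82, the fitted falls of MEIS1, MEIS3 and PKNOX2 were larger. The HOX value of -0.79, that of HOXC8, had an SE of 0.27.

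**Figure D5:**
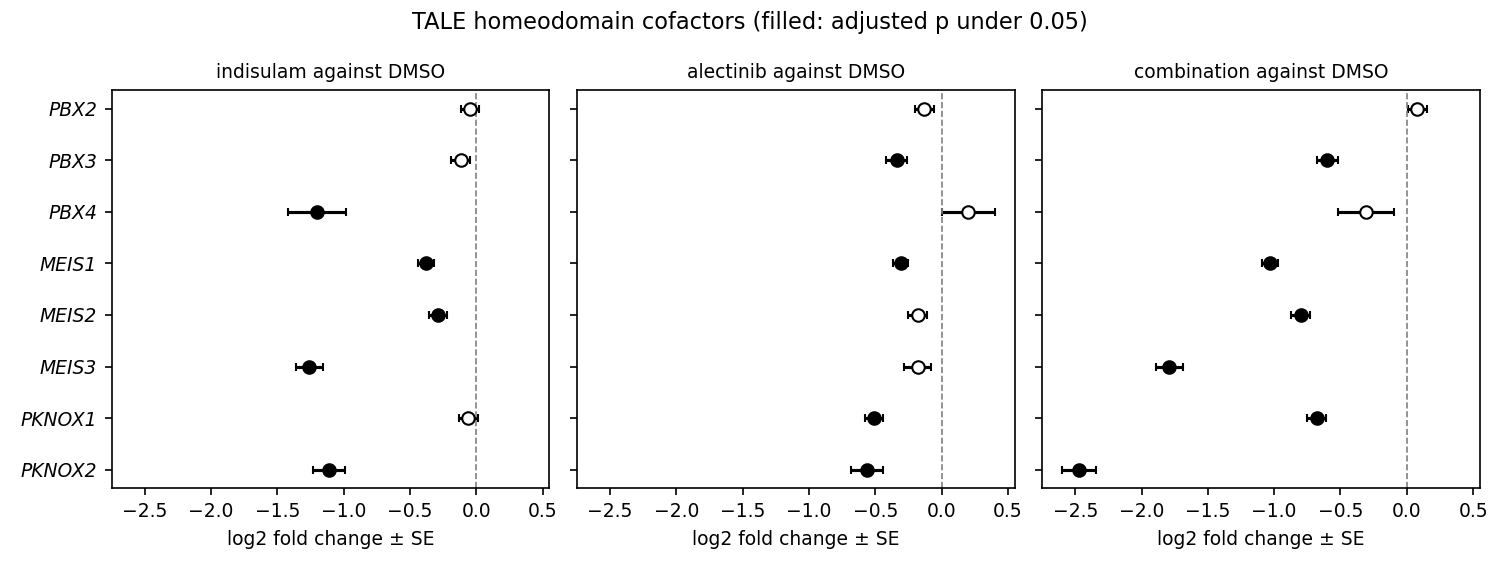
Log2 fold change ± SE against DMSO of 8 TALE cofactor genes in the 3 treatments; filled points have an adjusted p under 0.05. In the combination 6 of 8 points are filled and to the left of 0, from PBX3 (-0.60) to PKNOX2 (-2.47).

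Regulators of the clusters changed in both directions. Of 31 Polycomb genes, 10 rose and 12 fell in the combination (median -0.03), 8 rose and 8 fell under indisulam, and 2 rose and 7 fell under alectinib. Among all genes 9.99% were higher and 12.3% lower under alectinib. Against indisulam, the combination had 4 higher and 11 lower Polycomb genes, where 18.9% of all genes were higher and 20.1% lower. Taking both directions, 60.3% of all genes were called in the combination, 47.8% under indisulam and 22.3% under alectinib, and 22, 16 and 9 Polycomb genes were. With upper-quartile scaling the indisulam counts were 13 and 5, and without indisulam replicate 1 there were 5 lower. Under alectinib 1 was higher with RLE scaling, without any 1 of the DMSO libraries and without alectinib replicate 2, 3 or 4. EZH2, the histone H3 lysine methyltransferase of Polycomb repressive complexes, fell from 101 ± 4.18 CPM (SD, n = 4) to 37.4 ± 2.12 in the combination (log2 -1.44 ± 0.06 (SE), adjusted p = 9.36e-15). The histone-binding subunits RBBP4 (-0.97 ± 0.05) and RBBP7 (-0.75 ± 0.06), which also serve other complexes, fell too. EZH1, the relative of EZH2, rose from 65.8 to 99.0 CPM (0.59 ± 0.07), and is named here after its values were seen.

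Of 21 KMT2 and trithorax-group genes, 7 rose and 6 fell in the combination (median 0.01), 7 rose and 5 fell under indisulam, and 4 rose and 2 fell under alectinib. Those 13, 12 and 6 calls stand beside 60.3%, 47.8% and 22.3% of all genes. Without indisulam replicate 3 there were 3 lower under indisulam. Under alectinib 2 were higher without DMSO replicate 1 or 2 or alectinib replicate 3 or 4, and 1 was lower with upper-quartile scaling and without DMSO replicate 2 or 4 or alectinib replicate 3 or 4. ASH2L, a core subunit of the KMT2 methyltransferase complexes, had 56.6 ± 2.72 CPM (SD, n = 4) with DMSO and fell to 18.5 ± 1.16 with indisulam and 19.0 ± 1.67 with both drugs. With alectinib it had 56.4 ± 4.06. PSIP1 (-1.38 ± 0.07) and MEN1 (-0.92 ± 0.10), whose products tether KMT2A to chromatin, fell in the combination as well.

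Retinoic acid and CDX factors switch HOX genes on in the embryo. CDX2 and CDX4 had no count and CDX1 had 5, and of 22 genes of this list 15 were tested. In the combination 2 rose and 4 fell (median -0.04), under indisulam 2 rose and 2 fell, and under alectinib 1 rose and 3 fell. Those 6, 4 and 4 of 15 stand beside 60.3%, 47.8% and 22.3% of all genes called. Under alectinib 2 were higher with upper-quartile scaling and without DMSO replicate 4, and 3 without alectinib replicate 4, and in the combination 1 was higher without DMSO replicate 2. The retinoic acid receptor gene RARG fell from 19.0 ± 2.4 CPM (SD, n = 4) to 6.45 ± 0.879 (log2 -1.56 ± 0.11 (SE), adjusted p = 3.01e-11), and STRA6, the retinol uptake receptor, fell by 0.81 on the log2 scale. RXRA, the partner of retinoic acid receptors, rose from 67.8 ± 6.3 to 103 ± 9.42 CPM (0.60 ± 0.09).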

How the data were processed

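The authors deposited 1 table of raw whole-number read counts per gene for 16 libraries, with exonic lengths and coordinates that equal GENCODE 29 for all 58735 genes. Tools named in the submitters' processing notes are featureCounts 2.0.1, HISAT2 2.2.1, Trimmomatic 0.39 and FastQC 0.11.9, with GRCh38 as build. Columns were assigned by the treatment and number in their names; the combination is spelled InAle there and IndAle in the labels. Library totals are given in the report; they limit the precision of genes with few counts.

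Genes were filtered with filterByExpr of edgeR 4.0.16 (R 4.3.3, minimum count 10), which left 22433. A quasi-likelihood model with TMM factors was fitted over all libraries (12 residual degrees of freedom). Tests were two-sided, with Benjamini-Hochberg adjustment over all tested genes and calls at 0.05. Fold changes used a prior count of 0.125. Levels are CPM computed with TMM-scaled library sizes, with SDs over 4 libraries. The fit was tested on simulated data. Sequences came from RefSeq (GRCh38.p14) promoters and GENCODE 29 transcripts.

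The members, lists and tests were chosen with earlier results of these data known. All 39 members are accounted for. Some genes of the lists and a sequence are not reported here, and the list counts and marker sums leave those genes out. Values in every library are given for those reaching 1 CPM and for HOXD13, which was called. From each list the 3 members with the lowest p in the combination are named, with cluster noncoding genes at 1 CPM or more and the 2 nearest protein-coding genes at each cluster end. Alternatives were other scalings, no filter, DESeq2 1.42.0, a replicate block, only the 2 groups compared, and each replicate left out. The unshared exon length and the list counts under each alternative were added after seeing the data.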

Additional observations from a re-analysis of the deposited data

Results flagged for a closer look

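In 44 groups of 4 libraries (the 11 tested genes in each group), the gap of the highest or lowest library to its nearest neighbour was set against the range, and 3 exceeded Dixon's limit for 4 values. Chance flags about 1 group in 20. HOXC4 in DMSO replicate 4 was high (10.1 CPM against 8.79 to 8.97 in the others), with a gap of 0.857 of the range. HOXC9 in DMSO replicate 3 was low (0.374 CPM against 0.73 to 0.773), with a gap of 0.894. HOXD4 in indisulam replicate 2 was low (0.288 CPM against 0.483 to 0.499), with a gap of 0.924.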

How the results depend on the processing

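No HOX change that was called reversed under any alternative. The count of genes called higher in indisulam, 1 as reported, was 2 with upper-quartile scaling and with DESeq2, and 0 without a filter, with only the 2 groups compared and with the replicate block. Same-numbered libraries were at most weakly correlated (5 of 24 pairs over 0.1, range -0.063 to 0.168). The replicate block raised the calls among all genes in every comparison, for example from 5009 to 5490 with alectinib. Whether libraries of 1 number form a pair is not settled by these values. Among HOX genes the block ended the HOXD13 call (adjusted p = 0.0548) and no other. The count lower in the combination was 1 with upper-quartile scaling (3 as reported), the interaction had 1 lower with DESeq2 (0), and the combination against indisulam had 2 higher without a filter (1), where HOXB9 entered. Leaving out 1 library at a time gave 0 to 2 higher in indisulam, 1 to 2 higher in alectinib, 2 to 3 higher and 1 to 3 lower in the combination, 1 to 2 lower in the combination against alectinib and 0 to 1 lower in the interaction. Under indisulam, upper-quartile scaling gave 3 lower KMT2 and trithorax-group genes (5) and 4 higher retinoid and CDX genes (2). The cause was not tested. The HOXD share of the DMSO level was 73.8% without dividing by length. Low counts limit HOXC5, HOXD4, HOXD10 and HOXD13.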

Other observations

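HOXB9, with too few counts to be tested, had 0 counts in all 8 DMSO and indisulam libraries, 7 counts over 2 alectinib libraries and 12 counts over 3 combination libraries. With no filter on low counts, edgeR gave adjusted p = 0.0334 for the combination against DMSO, 0.0466 against indisulam and 0.216 for alectinib against DMSO. HOXD9, with which HOXB9 shares a stretch of 40 identical bases, had 14397 counts over all libraries. By group these were 2929 in DMSO, 3200 under indisulam, 4481 under alectinib and 3787 in the combination. Whether any HOXB9 counts came from HOXD9 reads was not tested. HOXB8 had 4 counts in 1 alectinib library and 1 in the combination. LINC02086, in the same cluster, had 7 counts, all in the combination.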
